A study of Mus musculus with 8 samples.

Results

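Wnt ligands are secreted lipid-modified glycoproteins that bind Frizzled receptors, and secreted antagonists act outside the cell to limit that binding or the use of its co-receptors. The 39 protein-coding mouse genes described here are those whose symbols place them in these families, taken from 38355 genes counted per library. They comprise 19 Wnt ligands, 10 Frizzled receptors (Fzd1 to Fzd10) and 10 secreted antagonists (Sfrp1, Sfrp2, Sfrp4, Sfrp5, Frzb, Wif1 and Dkk1 to Dkk4). RNA was sequenced from thoracic dorsal root ganglia, which house the cell bodies of somatosensory neurons, taken with the adjoining spinal cord at embryonic day E11.5. The design set 4 wild-type (WT) against 4 Prdm12-/- (KO) libraries, all of the C57Bl6 strain; the series text speaks of triplicates, and all 8 libraries given were used. The KO embryos lack the zinc-finger transcription factor gene Prdm12. The comparison bears on which genes differ without it in the whole dissected tissue, not in somatosensory neurons alone. The labels do not say how the allele was made, or whether a library held 1 embryo or a pool, and the p-values therefore measure only the spread between these libraries.

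In the developing spinal cord, Wnt1 and Wnt3a are made by the roof plate, the strip of cells at the dorsal midline, and act on dorsal progenitors and neural crest. Binding of a Wnt to a Frizzled receptor and the co-receptor Lrp5 or Lrp6 stabilises beta-catenin, which activates target genes with TCF and LEF factors, while other Wnts act through Frizzled without beta-catenin on cell polarity and movement. Sfrp proteins and Frzb carry a Frizzled-like cysteine-rich domain that binds Wnts, Wif1 binds Wnts through a different domain, and Dkk1 blocks the co-receptors.

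WT replicate 1 was sequenced 2.56 times as deeply as the median of the other 7 libraries (67782435 counts against 23088908 to 28500792). It was the highest or lowest of the 8 libraries for 19 of the 38 tested genes of this set, and KO replicate 4 for 17. Over all tested genes WT replicate 1 was the highest library for 20.2% and the lowest for 20.6%, and KO replicate 4 for 18.7% and 18.9%. Without WT replicate 1, 24 of the 38 estimates changed sign or moved by over 1.5 times, 8 of them changing sign. Prdm12 itself ranged from 22.2 to 39.6 CPM (counts scaled to a common library total) in WT and from 0.962 to 1.55 CPM in KO, so every library matched its label. Neural tissue markers were well represented, with the summed level of 12 sensory neuron genes at 422 to 575 CPM and that of 10 spinal neuron genes at 2879 to 3354 CPM in WT. Mesenchyme was in the dissections as well, with 17 sclerotome and mesenchyme genes summing to 3363 to 4423 CPM in WT. Reads were not assigned to a tissue, and in such bulk samples fewer cells of a type cannot be told apart from less RNA per cell.

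Frzb was the 1 gene of the set that passed the threshold on adjusted p, and it was lower in KO. Frzb encodes secreted Frizzled-related protein 3, a Wnt-binding antagonist first known from cartilage. Of the 38 members that passed the filter on low counts, 1 fell and 0 rose at an adjusted p under 0.05 (edgeR quasi-likelihood test, adjusted over all 16068 genes tested), while 37 did not pass. Over all tested genes 0.299% were called, 0.243% lower and 0.056% higher. DESeq2 and limma-voom likewise called 1 member lower and 0 higher, and 3 higher and 2 lower members had an unadjusted p under 0.05. Those 5 make 13.2% of the tested members, beside 6.35% of all tested genes.

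Frzb (ENSMUSG00000027004, mm10 chromosome 2, 80411970 to 80447625, minus strand) stood at 56.3, 59.95, 61.6 and 63.6 CPM in WT replicates 1 to 4. In KO replicates 1 to 4 it stood at 49.9, 45.0, 47.6 and 42.6 CPM. All 4 KO libraries lay below all 4 WT libraries, a separation seen in 1 of 38 members and in 4.14% of all tested genes. WT averaged 60.4 ± 3.09 CPM and KO 46.3 ± 3.16 CPM (SD over 4 libraries each). The log2 fold change was −0.38 (SE 0.06, 95% interval −0.51 to −0.25, edgeR adjusted p = 0.0208), a KO level 0.768 times that of WT. Frzb ranked 28 among all tested genes by p-value. It lies on the same chromosome as Prdm12, 48756174 bp away.

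The call depended on single libraries, although the size of the change did not. Without 1 library at a time, the log2 fold change of Frzb lay between −0.42 and −0.34, and the gene passed in 2 of 8 such fits, those without WT replicate 1 (edgeR adjusted p = 0.00465) or KO replicate 1 (0.0334). Leaving out any other library took the edgeR adjusted p past the threshold, to 0.0705, 0.0918 and 0.0960 for WT replicates 2, 3 and 4 and to 0.0790, 0.0700 and 0.0751 for KO replicates 2, 3 and 4.

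**Figure D1:**
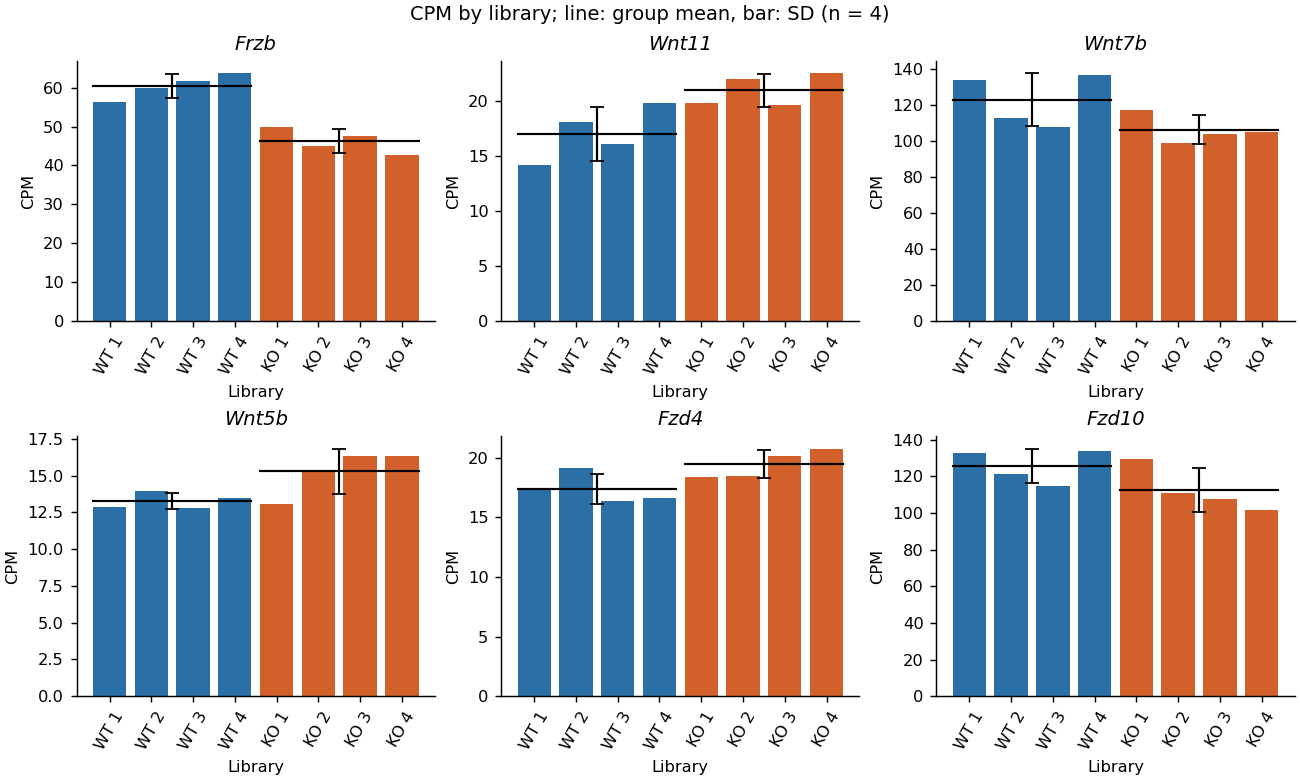
CPM of 6 genes in each of the 8 libraries (blue bars WT, orange bars KO), with the group mean as a line and its SD (n = 4) as an error bar. Every KO bar of Frzb is below every WT bar, between 42.6 and 49.9 CPM against 56.3 to 63.6 CPM, while the groups overlap for the other 5 genes.

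Summed levels of sensory neuron and neural tube progenitor markers were, like Frzb, lower in every KO library than in any WT library. Of 12 tested sensory neuron genes, 6 fell and 0 rose (edgeR, over all genes), and their summed level was 422 to 575 CPM in WT and 368 to 406 CPM in KO. Pou4f1, which encodes the sensory neuron factor Brn3a, stood at 80.2, 95.9, 99.9 and 99.8 CPM in WT replicates 1 to 4, against 68.1, 67.2, 67.5 and 58.2 for KO replicates 1 to 4. WT replicate 1 was the lowest WT library for Frzb, at 93.3% of the WT mean, and for the sensory sum, at 81.1%. It was also lowest in WT for the sums of spinal neurons (90.9%) and crest-derived glia (90.4%). The same held for sclerotome and mesenchyme (84.9%) and erythroid genes (87.4%), but not for the remaining lists. The low place of WT replicate 1 was therefore not particular to sensory neurons. KO libraries held 70.6% to 82.6% of the WT mean of Frzb and 70.7% to 78.1% of that of the sensory sum. Of 11 neural tube progenitor genes 10 lay below 0 and 4 had an unadjusted p under 0.05, but 0 passed in edgeR, DESeq2 or limma-voom. Their summed level was 3302 to 3617 CPM in WT and 3109.7 to 3279 CPM in KO. Vim and Nes weighed most in that sum, with WT means of 1586 and 886 CPM beside 3463 CPM for the whole list. Vim was the 1 gene of the 11 with all KO libraries below all WT libraries, so the separation of the sum is not shared by the list. Crest-derived glia, by 7 genes, summed to 569 to 668 CPM in WT and 561 to 641 CPM in KO, with 1 gene lower.

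No mesenchyme marker passed. All 17 sclerotome and mesenchyme genes had a log2 fold change above 0, with a median of 0.15, and 0 of them passed in edgeR, DESeq2 or limma-voom (3 at an unadjusted p under 0.05). Their summed level was 3363 to 4423 CPM in WT and 4144 to 4723 CPM in KO, overlapping between groups. Of 12 skeletal muscle genes 11 lay above 0 and 7 had an unadjusted p under 0.05, but 0 passed in the 3 tools, with sums of 767 to 887 CPM in WT and 837 to 1150.4 CPM in KO. All 10 spinal neuron genes lay below 0 and 0 passed in edgeR or DESeq2 (6 at an unadjusted p under 0.05, 1 lower in limma-voom). With the mean log2 CPM of the muscle and mesenchyme genes as a covariate, Frzb had a log2 fold change of −0.29. It missed the threshold (edgeR adjusted p = 0.9996, unadjusted p = 0.00721), and in that fit 1 gene passed of all those tested. The covariate ran from 6.155 to 6.313 in WT and from 6.298 to 6.536 in KO. It thus nearly followed the groups, and that fit cannot tell the covariate and the genotype apart. Its genes include Pax3 and Pax7, which are also on the progenitor list. The part of the neuronal and mesenchymal markers in the Frzb result was not tested.

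**Figure D2:**
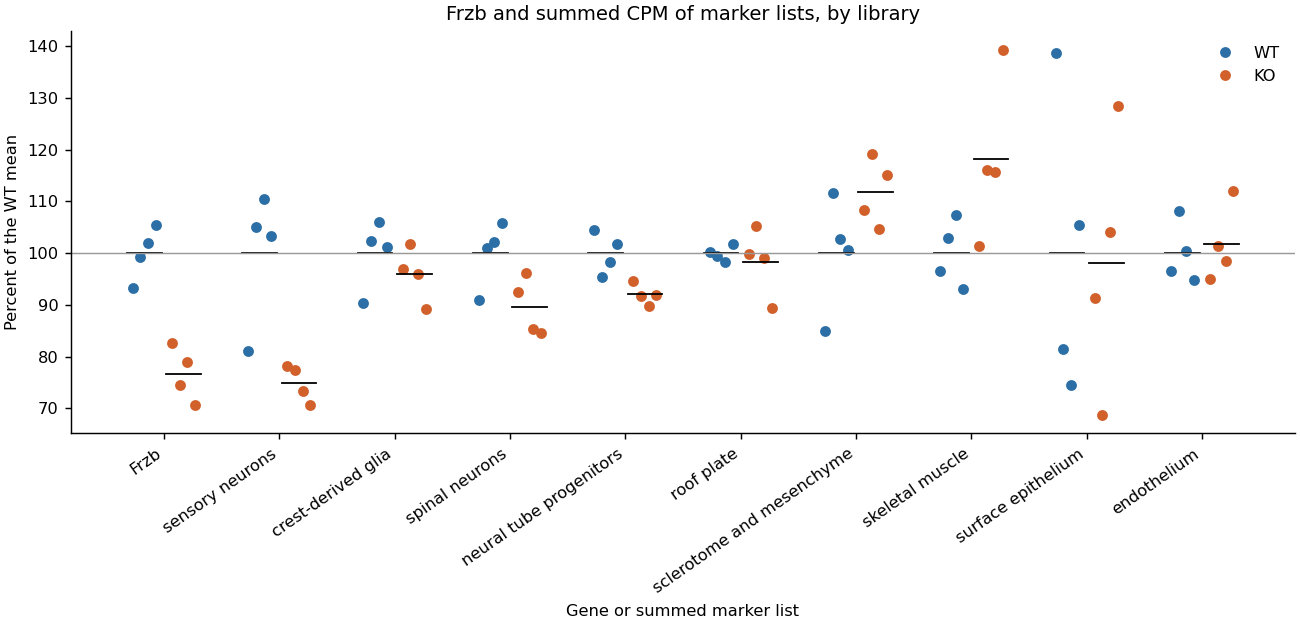
Frzb and the summed CPM of 9 marker lists in each library, as a percent of the WT mean (blue WT, orange KO, black line group mean). Frzb and the lists of sensory neurons and neural tube progenitors are lower in every KO library than in any WT library, while sclerotome and mesenchyme and skeletal muscle lie on average above the WT mean in KO.

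The antagonists as a class were led by Sfrp1 and Sfrp2. Levels of different genes are given per length, as CPM per kb of annotated exon (CPM/kb). Sfrp1 reached 47.9 ± 1.86 CPM/kb and Sfrp2 44.3 ± 3.86 CPM/kb in WT (SD, n = 4 each), and their ranges over the 8 libraries overlapped. Frzb came next at 18.7 ± 0.955 CPM/kb in WT and 14.3 ± 0.975 CPM/kb in KO, below Sfrp2 in every library. These 3 genes held 86.6% ± 1.02 of the summed antagonist level per length in WT and 86.1% ± 1.55 in KO (SD, n = 4 each). The share of Frzb alone was 14.6% ± 0.538 in WT and 11.1% ± 0.977 in KO.

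Sfrp1 stood at 221, 209, 206 and 202 CPM in WT replicates 1 to 4, against 213, 211, 213 and 243 for KO replicates 1 to 4. Only KO replicate 4 exceeded all WT libraries, and the log2 fold change was 0.07 (95% interval −0.04 to 0.19). Sfrp2, a gene of neural progenitors among other tissues, stood at 85.1, 102, 92.0 and 102 CPM in WT, against 97.0, 110, 93.9 and 96.8 for KO, replicates in order. Its groups overlapped and its log2 fold change was 0.06 (95% interval −0.09 to 0.21), and 0.02 without WT replicate 1. For both genes, the interval left out a change as large as that of Frzb in either direction.

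The other antagonists were lower in level and did not pass. Dkk2 had 5.97 ± 1.04 CPM/kb in WT, Dkk3 5.50 ± 0.603 and Wif1 3.46 ± 0.300 (SD, n = 4 each). Their log2 fold changes were 0.21 for Dkk2, −0.06 for Dkk3 and 0.12 for Wif1, and 0.09, −0.12 and 0.08 without WT replicate 1. Sfrp5 had 1.45 ± 0.319 CPM/kb in WT and Dkk1, the blocker of Lrp5 and Lrp6, 0.559 ± 0.155. Their log2 fold changes were 0.04 and −0.26, the latter with a 95% interval from −0.77 to 0.25.

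Sfrp4 was close to the limit of detection. It stood at 0.550, 0.885, 0.706 and 0.564 CPM in WT replicates 1 to 4, against 0.506, 0.641, 0.450 and 0.262 for KO replicates 1 to 4. The groups overlapped, and the log2 fold change of −0.49, the lowest point estimate in the set, had a 95% interval from −1.11 to 0.13. Dkk4 was the 1 member left out of the test, with 5 counts in WT replicate 1, 3 in KO replicate 2, 1 in KO replicate 4 and 0 in the other 5 libraries. A count of 0 allows up to 3 counts, or 0.105 to 0.118 CPM in those 5 libraries, for counting error alone.

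**Figure D3:**
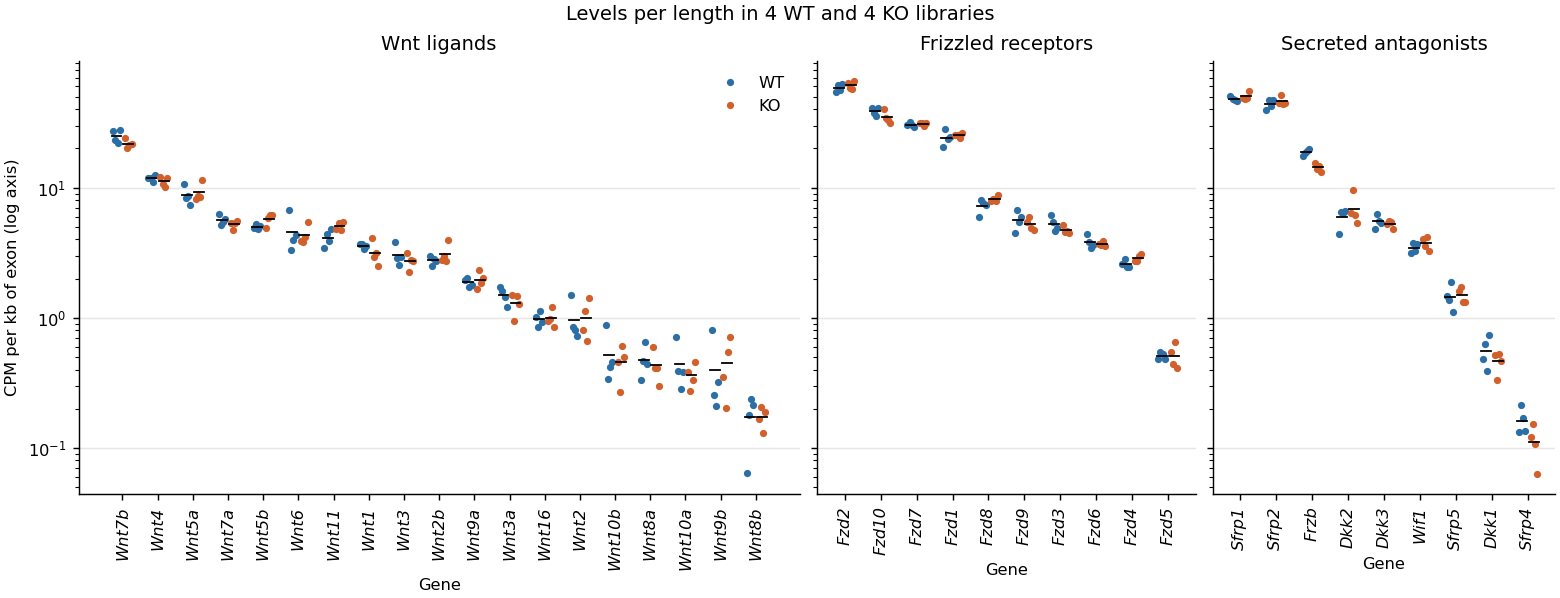
Level per length (CPM per kb of exon, log axis) of the 38 tested genes in each WT (blue) and KO (orange) library, ordered by WT mean within each class, with group means as black lines. Fzd2, Sfrp1 and Sfrp2 are the highest, the ligands are led by Wnt7b, and Frzb is the third antagonist. Dkk4, with 0 counts in 5 libraries, is not drawn.

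Among the ligands Wnt7b was the most abundant per length, and 0 of 19 passed in edgeR, DESeq2 or limma-voom, with 2 higher and 1 lower at an unadjusted p under 0.05. Wnt7a and Wnt7b are neural ligands that act on the endothelium of the growing central nervous system. Wnt7b had 25.1 ± 2.97 CPM/kb in WT, Wnt4, known for kidney and gonad development, 11.8 ± 0.5851, and Wnt5a, which acts on polarity and tissue outgrowth, 8.75 ± 1.403 (SD, n = 4 each). The range of Wnt7b over the 8 libraries lay above that of Wnt4, while those of Wnt4 and Wnt5a overlapped. Together the 3 made up 55.9% ± 1.03 of the summed ligand level per length in WT and 53.5% ± 1.26 in KO. From Wnt7a downwards, 14 of 15 adjacent pairs had overlapping ranges, Wnt2b and Wnt9a being the exception.

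Wnt7b stood at 134, 113, 108 and 137 CPM in WT replicates 1 to 4, against 118, 99.0, 104 and 105 for KO replicates 1 to 4. The groups overlapped through WT replicates 2 and 3 and KO replicate 1. Its log2 fold change was −0.21 (95% interval −0.39 to −0.03, edgeR adjusted p = 0.718). Wnt4 stood at 49.5, 50.0, 46.3 and 52.2 CPM in WT, against 50.4, 44.7, 42.2 and 50.0 for KO, replicates in order, with overlapping groups and a log2 fold change of −0.08 (95% interval −0.22 to 0.06). Wnt5a stood at 83.7, 65.3, 66.9 and 57.7 CPM in WT, against 63.9, 67.5, 66.6 and 90.2 for KO. For Wnt5a 1 library in each group, WT replicate 1 and KO replicate 4, stood above the rest, and the log2 fold change was 0.07 (95% interval −0.24 to 0.38), and 0.19 without WT replicate 1.

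The largest positive estimate among the ligands belonged to Wnt11, which acts largely without beta-catenin and is known from kidney branching and cell movement. Wnt11 stood at 14.2, 18.1, 16.1 and 19.8 CPM in WT replicates 1 to 4, against 19.8, 22.0, 19.6 and 22.5 for KO replicates 1 to 4. WT replicate 4 reached the level of the lower KO libraries, and the other WT libraries lay below them. The log2 fold change was 0.31 (95% interval 0.09 to 0.53, edgeR adjusted p = 0.560), and 0.23 without WT replicate 1.

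Wnt5b, the paralogue of Wnt5a, stood at 12.9, 13.9, 12.8 and 13.5 CPM in WT replicates 1 to 4, against 13.0, 15.4, 16.3 and 16.4 for KO replicates 1 to 4. KO replicate 1 lay among the WT libraries and the other 3 above them, with a log2 fold change of 0.20 (95% interval 0.02 to 0.38, edgeR adjusted p = 0.731). Wnt2b stood at 12.5, 10.5, 11.96 and 11.48 CPM in WT, against 11.6, 12.6, 11.55 and 16.6 for KO, replicates in order. Only KO replicate 4 was well above the WT libraries, and the log2 fold change of Wnt2b was 0.17 (95% interval −0.08 to 0.42). The spans of Wnt5b, Wnt7b and Wnt11, introns included, overlap annotated genes on the opposite strand. Such an overlap holds for 9 of the 39 members, also among them Wnt5a, Fzd3 and Sfrp2, but not for Frzb. Overlap of exons was not examined and the strand of counting is not given in the sources used here. Whether any reads were shared is therefore not known.

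The roof plate ligands were detected at modest levels. Wnt1 ranged from 7.996 to 8.78 CPM in WT and from 5.90 to 9.79 CPM in KO, with a log2 fold change of −0.17 (95% interval −0.46 to 0.12). Wnt3a ranged from 3.35 to 4.78 CPM in WT and from 2.60 to 4.12 CPM in KO, with a log2 fold change of −0.21 (95% interval −0.57 to 0.15), and −0.11 without WT replicate 1. For both genes the groups overlapped. Other roof plate genes were likewise not called, with Lmx1a at 7.10 ± 1.42 CPM in WT against 6.71 ± 1.801 for KO, Gdf7 at 0.733 ± 0.118 and 0.895 ± 0.323, and Msx1 at 17.6 ± 2.31 and 15.6 ± 1.96 (SD, n = 4 each). The summed level of 10 roof plate genes was 566 to 586 CPM in WT and 514 to 606 CPM in KO. Zic1 and Wls made up most of that sum, with WT means of 356 and 133 CPM, so it says little about the scarcer genes.

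Some ligand genes lie in adjacent pairs in the genome, an arrangement kept from ancient duplications, and their members were not equally abundant. Wnt6 had 10.3 times the WT level per length of Wnt10a, 6193 bp away on chromosome 1. Wnt3 had 7.67 times the level of Wnt9b, 24328 bp away on chromosome 11, and Wnt1 had 6.87 times that of Wnt10b, 11706 bp away on chromosome 15. Wnt3a and Wnt9a, 16175 bp apart on chromosome 11, were close in level at 1.495 ± 0.225 and 1.87 ± 0.131 CPM/kb in WT (SD, n = 4 each), with overlapping ranges. No other protein-coding gene lies between the genes of these pairs in the annotation.

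Several of the scarce ligands peaked in WT replicate 1. In that library 8 of the 19 ligands were at their highest of the 8 libraries, namely Wnt2, Wnt3, Wnt3a, Wnt6, Wnt7a, Wnt9b, Wnt10a and Wnt10b. Wnt9b stood at 3.62, 1.14, 0.941 and 1.44 CPM in WT replicates 1 to 4, against 1.59, 0.921, 2.47 and 3.19 for KO replicates 1 to 4. Wnt6, a ligand of surface ectoderm, measured 14.8 CPM in WT replicate 1 and 7.23 to 9.47 CPM elsewhere in WT. The summed level of 11 surface epithelium genes was also highest in WT replicate 1, with 95.3 CPM beside 51.2 to 72.5 elsewhere in WT, and next highest in KO replicate 4, with 88.3 CPM beside 47.2 to 71.5 elsewhere in KO. The part of surface epithelium in these ligand levels was not tested. Without WT replicate 1 the log2 fold change of Wnt9b went from 0.09 to 0.79 and that of Wnt10b from −0.24 to 0.20, and neither passed.

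**Figure D4:**
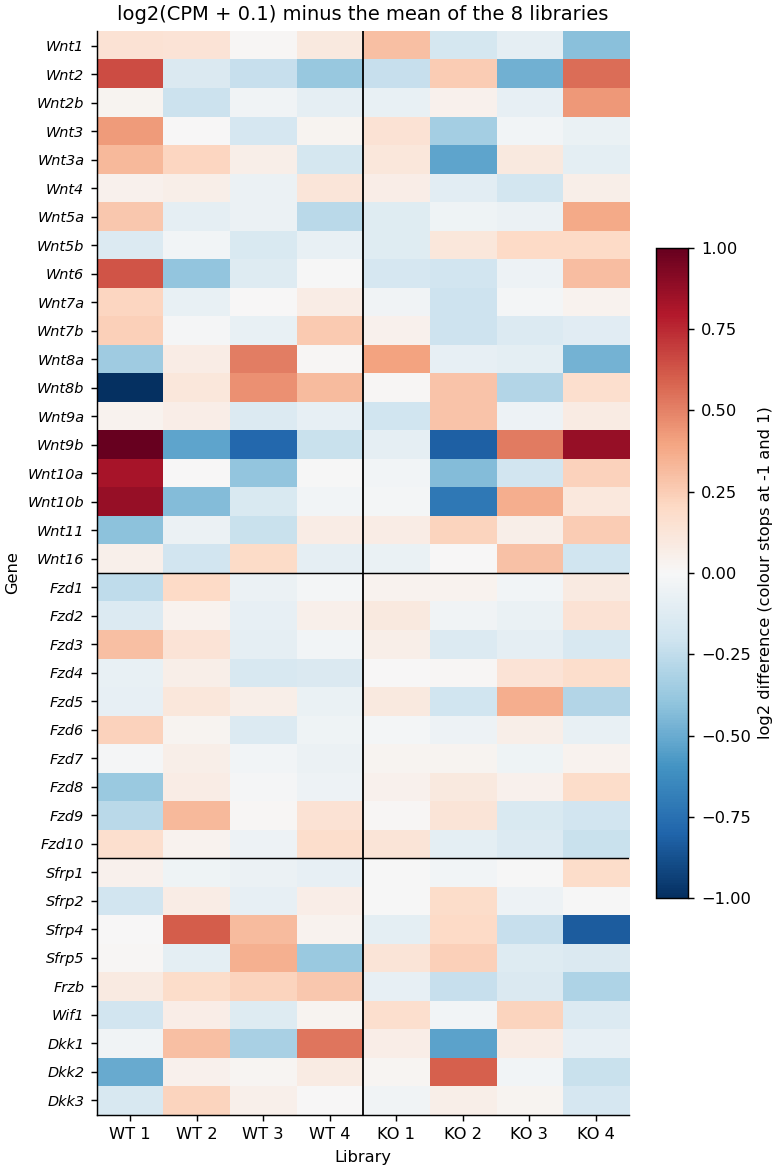
Deviation of each tested gene in each library from its mean over the 8 libraries, as log2(CPM + 0.1), with red above and blue below the mean. Wnt9b, Wnt10a, Wnt10b, Wnt6 and Wnt2 are reddest in WT replicate 1, and the receptors in the middle block vary little. Frzb is above its mean in the 4 WT libraries and below it in the 4 KO libraries.

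By class the receptors had the smallest median SE, at 0.08 beside 0.10 for antagonists and 0.14 for ligands. The most abundant antagonists were as precise, with an SE of 0.05 for Sfrp1, 0.07 for Sfrp2 and 0.06 for Frzb. In edgeR, DESeq2 or limma-voom 0 of 10 receptors passed, with 1 higher and 0 lower at an unadjusted p under 0.05. Fzd2 had 58.7 ± 3.74 CPM/kb in WT, the highest mean in the whole set, followed by Fzd10 at 38.7 ± 2.89, Fzd7 at 30.4 ± 1.01 and Fzd1 at 24.2 ± 3.14 (SD, n = 4 each). The ranges of Fzd10 and Fzd7 overlapped, while Fzd2 lay above Fzd10, and Fzd7 above Fzd1, in all libraries. These 4 receptors held 85.8% ± 0.459 of the summed receptor level per length in WT and 85.8% ± 0.527 in KO. Fzd8, Fzd9, Fzd3, Fzd6 and Fzd4 followed, from 7.22 ± 0.927 to 2.59 ± 0.187 CPM/kb, and Fzd5 was the lowest at 0.510 ± 0.0342.

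Fzd2 stood at 199.7, 225, 207 and 228 CPM in WT replicates 1 to 4, against 235, 214, 209.8 and 243 for KO replicates 1 to 4. Fzd7 stood at 137, 144, 136 and 133 CPM in WT, against 141, 142, 134 and 142 for KO, replicates in order. Both overlapped between groups, with log2 fold changes of 0.07 (95% interval −0.06 to 0.20; 0.04 without WT replicate 1) for Fzd2 and 0.02 (95% interval −0.06 to 0.11) for Fzd7. The interval of Fzd7 was the narrowest in the set.

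Fzd10, a receptor of the dorsal neural tube, stood at 133, 122, 115 and 134 CPM in WT replicates 1 to 4, against 129.7, 111, 108 and 102 for KO replicates 1 to 4. KO replicate 1 lay among the WT libraries and the other 3 KO libraries below them, with a log2 fold change of −0.16 (95% interval −0.33 to 0.01). Fzd3, which acts in axon growth and guidance, stood at 78.6, 70.1, 59.9 and 62.5 CPM in WT, against 66.2, 57.9, 59.8 and 57.1 for KO, replicates in order. Its groups overlapped, with a log2 fold change of −0.17 (95% interval −0.36 to 0.01), and −0.08 without WT replicate 1.

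Fzd4, the receptor of the vascular ligand Norrin, stood at 17.4, 19.1, 16.4 and 16.6 CPM in WT replicates 1 to 4, against 18.4, 18.5, 20.1 and 20.8 for KO replicates 1 to 4. WT replicate 2 lay among the KO libraries, and the log2 fold change was 0.16 (95% interval 0.01 to 0.32, edgeR adjusted p = 0.772). Fzd8 stood at 35.2, 48.0, 45.2 and 44.1 CPM in WT, against 47.1, 48.8, 47.2 and 52.0 for KO, replicates in order. WT replicate 1 was far below the other libraries, and the log2 fold change of Fzd8 was 0.18 with all libraries (95% interval −0.01 to 0.37) and 0.10 without that one. The summed level of 10 endothelial genes was 445 to 507 CPM in WT and 445 to 525 CPM in KO.

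**Figure D5:**
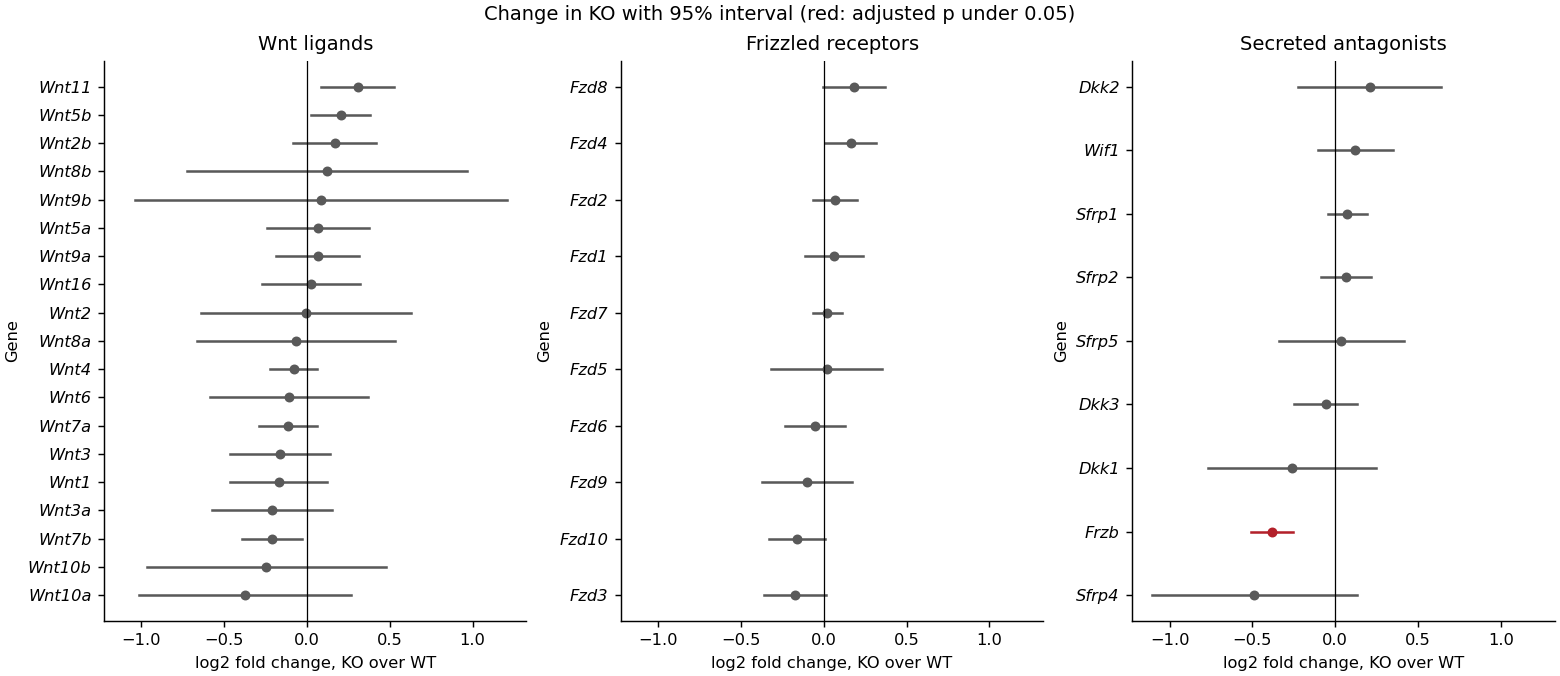
Log2 fold change of KO over WT with its 95% interval (not adjusted for the number of genes) for the 38 tested genes by class. Frzb, in red, is the gene with an adjusted p under 0.05. Intervals are narrow for the receptors and wide for scarce ligands such as Wnt9b, Wnt8b and Wnt10a.

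Over the set the estimates were spread evenly about 0, with 19 tested members above and 19 below, and a median log2 fold change of 0.005 beside −0.003 over all tested genes. The medians by class were −0.07 for ligands, 0.02 for receptors and 0.04 for antagonists. With all 8 libraries, the precision was enough to bound most of them. In 28 of the 38 tested members the 95% interval lay within a 1.5-fold change in either direction. Over all tested genes this held for 13217 of 16068, a larger share. The 28 members were 10 of 10 receptors, 12 of 19 ligands and 6 of 9 antagonists. Intervals reached beyond a 2-fold change for Wnt9b (−1.04 to 1.21), Wnt10a (−1.01 to 0.26) and Sfrp4 (−1.11 to 0.13). The median SE of the members was 0.11, against 0.08 over all tested genes.

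No gene listed from the rest of the pathway passed. Of 64 tested genes in 7 lists, which cover secretion, co-receptors, the R-spondin branch, cytoplasmic and nuclear transducers, target genes and planar polarity, 0 passed in edgeR, DESeq2 or limma-voom. An unadjusted p under 0.05 was reached by 3 (4.69%), and log2 fold changes ran from −0.18 to 0.39 with a median of 0.005. Ctnnb1, which encodes beta-catenin, had 1857 ± 30.7 CPM in WT, and its KO libraries averaged 1883 ± 57.5 CPM (SD, n = 4 each).

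Target genes that report signalling through beta-catenin gave no call. Of 14 tested, 0 passed, 0 had an unadjusted p under 0.05, 3 lay above 0 and 11 below, with a median log2 fold change of −0.03. Axin2, a negative regulator that the pathway itself induces, stood at 102, 81.2, 87.1 and 90.1 CPM in WT replicates 1 to 4, against 98.6, 80.6, 81.7 and 89.9 for KO replicates 1 to 4, overlapping throughout (log2 fold change −0.04, SE 0.08). Lef1, both an effector and a target, ranged from 28.3 to 34.4 CPM in WT and from 25.5 to 33.1 CPM in KO (log2 fold change −0.03, SE 0.09). The 2 target genes with the smallest p were Ccnd1, which encodes cyclin D1, at −0.06, and the inhibitor gene Nkd1 at −0.07.

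In the secretion list, Wls, the carrier of Wnt proteins to the cell surface, and Porcn, the enzyme that acylates them, had log2 fold changes of 0.03 and −0.05. Among 10 co-receptor genes 8 lay above 0, with Ptk7 and Ror1 at 0.13 each. In the R-spondin branch, which raises receptor levels at the membrane, Rspo3 averaged 12.4 ± 1.198 CPM in WT against 14.7 ± 1.19 CPM for KO, SD over 4 libraries each (log2 fold change 0.24, edgeR adjusted p = 0.661), and the receptor gene Lgr6 a log2 fold change of 0.34. Of the cytoplasmic transducers, Gsk3b and Apc, parts of the complex that degrades beta-catenin, had log2 fold changes of −0.10 and −0.09. The co-repressor genes Tle1 and Tle2 stood at 0.11 and 0.39, and the polarity genes Prickle1 and Prickle2 at 0.14 and −0.12, on the same scale.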

How the data were processed

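Total RNA of microdissected tissue was sequenced by the submitters, and the authors deposited raw counts of reads for each Ensembl gene in 4 WT and 4 KO libraries grouped by title. Per the submitters' processing notes the build was mm10 and the tools included DESeq2 1.8.2, the counter featureCounts 1.4.6-p1 and the aligner STAR 2.3.0e; the strand setting, like the annotation, is not given in the sources used here. The 5 summary rows per file held 0 counts and were left out. Symbols, coordinates and exon lengths came from GENCODE M21 (GRCm38), which matched 36602 of 38355 identifiers; the others held 0.263% of counts. All 39 members matched.

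KO was compared with WT in edgeR 4.0.16 (R 4.3.3) with filterByExpr, TMM factors of 0.991 to 1.012, a robust quasi-likelihood fit with group as the sole term, and Benjamini-Hochberg adjusted p-values over 16068 genes with a threshold of 0.05. SE was taken from the estimate and its F statistic (|log2 fold change| over root F), and 95% intervals are not adjusted. CPM uses TMM-adjusted totals, and CPM/kb divides it by the union of annotated exons. At these depths 3 counts are 0.0443 to 0.130 CPM. No 2 libraries of a group agreed within sampling noise. On simulated counts for KO against WT (15955 genes tested), the fit recovered 77.9% of genes changed 1.5-fold, 90.9% of those changed 2-fold and 98.5% of those changed 4-fold, and 5.32% of its calls were unchanged genes. Every simulated gene had the same spread between libraries, a biological coefficient of variation of 9.57%. The recovery rates therefore do not hold for members with a larger spread. Also tried were other filters or scalings, limma-voom (limma 3.58.1) with quality weights, DESeq2 1.42.0, the replicate number as a block, a muscle and mesenchyme covariate, a thinned WT replicate 1 and fits without each library. Figures were drawn with matplotlib 3.10.9.

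The members and gene lists were chosen with earlier results of these data known. The rule named, in every library, called members, the 10 members with the smallest p and the 3 highest per length in each class, and from each pathway list the 2 genes with the smallest p, plus Ctnnb1, Lef1 and Axin2. Wnt9b, Wnt6 and Pou4f1 were added after their values were seen. The marker list of sensory neurons held 13 genes, of which 12 were found. The co-receptor list held 11 genes, of which 10 were found.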

Additional observations from a re-analysis of the deposited data

Results flagged for a closer look

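In 5 of 100 groups of 4 values (76 of members, the rest sums of marker lists) 1 library lay far from the other 3, by a criterion that chance meets in about 1 of 20 groups. Wnt2 reached 3.402 CPM in WT replicate 1, beside 1.62 to 1.92 elsewhere in WT. Dkk2 was at 16.4 CPM in the same library against 23.6 to 24.6 CPM. Wnt5a was at 90.2 CPM in KO replicate 4 against 63.9 to 67.5 CPM in the other KO libraries, and Sfrp1 at 243 CPM in that library against 211 to 213 CPM. Fzd7 was at 134 CPM in KO replicate 3 against 141 to 142 CPM, a gap that is small beside its level.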

How the results depend on the processing

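Over 18 alternatives the log2 fold change of Frzb lay between −0.42 and −0.29, and it passed in 10 of them; no other member passed in any. The members called lower numbered 0 with the replicate block (Frzb adjusted p = 0.110) and 0 with the muscle and mesenchyme covariate, and 0 to 1 when a single library was left out, while members called higher stayed at 0 and the median of the members lay between −0.06 and 0.03 in all settings. Genes called over the whole table went from 48 to 100 with DESeq2, 125 with limma-voom, 16 with the replicate block, 1 with the covariate and 15 to 133 without 1 library, highest without WT replicate 1. The cause of these shifts was not tested. No pairing by replicate number was seen. Deviations of same-numbered libraries correlated at −0.108, 0.282, −0.187 and −0.007, and 1 of 8 libraries correlated best with its own number. With 4 libraries per group, these correlations cannot tell whether same-numbered libraries were collected or handled together. Per longest transcript in place of all exons, WT levels moved beyond 1 SD for 6 genes, most for Wnt7b, from 25.1 to 36.2 CPM/kb, which placed it above Fzd7. Without the filter on low counts Dkk4 was also tested and did not pass. Without WT replicate 1, 8 members changed sign, none of them called: Wnt2, Wnt6, Wnt8b, Wnt10a, Wnt10b, Fzd1, Fzd5 and Fzd6. Depth limits the scarcest members, with 6 to 37 counts per library for Sfrp4 and 12 to 21 for Wnt8b.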
